A study of Mus musculus with 8 samples.

Results

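Nuclear receptors are transcription factors of 1 protein superfamily, many of which are switched on by a small lipid-like ligand. The 36 genes described here were taken by name from the array annotation: every non-control probe whose gene name was on the list was used, and a gene with several probes was represented by the one with the highest mean level. They were 36 of 36824 genes named on the array, and 83 probes measured them. RNA came from whole kidney of male mice aged 20 weeks, with 2 mice in each of 4 groups and 1 array per mouse. The first group consisted of db/db mice given a mimic of miR-181b-5p in a carrier labelled PEI-NPs, and the second of db/db mice given a control miRNA in the same carrier. The third group was untreated db/db mice, and the fourth was normal mice, labelled m/m. All mice had the C57BLKS/J Iar background. The 3 db/db groups were written as +Leprdb/+Leprdb, homozygous for the db allele of the leptin receptor, and the normal group as m+/m+, so the coat-colour allele misty (m) also differed between normal and db/db mice. The db/db mouse becomes obese and diabetic, and the kidney RNA holds all cell types of the organ. In such bulk RNA, fewer cells of a type and less RNA per cell cannot be told apart.

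In the kidney, nuclear receptors couple diet, hormones and waste products to gene expression. The proximal tubule, which takes back most of the filtered solutes and burns fatty acids, uses HNF4A and PPARα, while the distal nephron uses the mineralocorticoid receptor to set salt transport. Receptors of the PPAR, LXR, FXR, PXR, CAR, retinoic acid, vitamin D and thyroid hormone classes bind DNA together with a retinoid X receptor (RXR) as a pair, on repeats of a short half-site related to AGGTCA. A miRNA mimic carries the mature miRNA strand, which pairs with mRNAs mainly through its seed. The mature strand of mouse miR-181b-5p is shown because it is the agent of the first group. Its 24 bases are given 5′ to 3′ from RefSeq (GRCm38.p6, chr1:137966650-137966673, plus strand, with a second copy at chr2:38853845-38853868), and the capitals mark the seed, bases 2 to 8.
miR-181b-5p: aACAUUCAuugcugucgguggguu

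Levels are log2 values relative to the 75th percentile of the same array, so 0 is that percentile and a difference of 1 is a 2-fold change. Between 56.5% and 62.5% of spots lay well above background on the 8 arrays, and 22369 genes passed the filter, which asked that 1 group or more have both of its arrays well above background. Of the 36 receptors, 35 passed, and 33 of them lay well above background on all 8 arrays. Nr0b2 did so on 6 arrays and Nr5a2 on 4. Pgr, the progesterone receptor, lay well above background on 1 of 8 arrays and was not tested. A difference was called at an adjusted p under 0.05 in limma, adjusted over all 22369 genes. The leading principal component (44.7% of the variance) placed the first mimic array at 82.2 and the second at 16.7. The other 4 db/db arrays lay between -2.10 and 4.78 and the normal arrays at -53.6 and -53.8. Markers of the proximal tubule were well above background on every array for 10 of 10 genes. Their summed level was 1373 times the 75th percentile in the first mimic array, against 2330 to 3469 in the other 7. Lepr had a log2 level of 2.76 ± 0.27 in mimic kidneys, 2.81 ± 0.18 in control miRNA kidneys, 2.88 ± 0.02 in untreated db/db kidneys and 3.65 ± 0.04 in normal kidneys (SD, n = 2 each); the db allele changes how the long form is spliced, so the level of this probe does not check the genotype. Each group occupied its own positions on the 1 slide, so position and group cannot be told apart.

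The comparison of db/db with normal kidney asked which receptors differ in diabetic kidney. In untreated db/db kidneys 1 of 35 receptors was called, Nr1i3, which fell; 3.34% of all 22369 genes were called there. After control miRNA it was again 1 of 35, Nr1i3, against 1.72% of all genes. After the mimic 5 of 35 were called, against 8.27% of all genes. Of these, 2 were higher than in normal kidneys (Nr1i2 and Ppara), with 3.41% of all genes called higher, and 3 were lower (Nr1i3, Esr1 and Thra), with 4.85% called lower. The mean of the 3 db/db groups, which draws on 6 arrays, gave 6 calls, with 11.1% of all genes called. There 3 rose (Nr1i2, Rarb and Rxrg), with 4.94% of all genes called higher, and 3 fell (Nr1i3, Esr1 and Hnf4g), with 6.19% called lower. These 4 comparisons share the same normal arrays. The 6 calls of 35 are 17.1%, and the receptors' median difference was 0.08 against -0.02 for all genes. All 6 db/db arrays lay on one side of both normal arrays for 12 of 35 receptors, 34.3%, which is near the 33.8% of all genes. Over the 4 groups at once, the F test called 1 receptor, Nr1i3 (adjusted p = 0.0282), with 2.87% of all genes called.

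**Figure D1:**
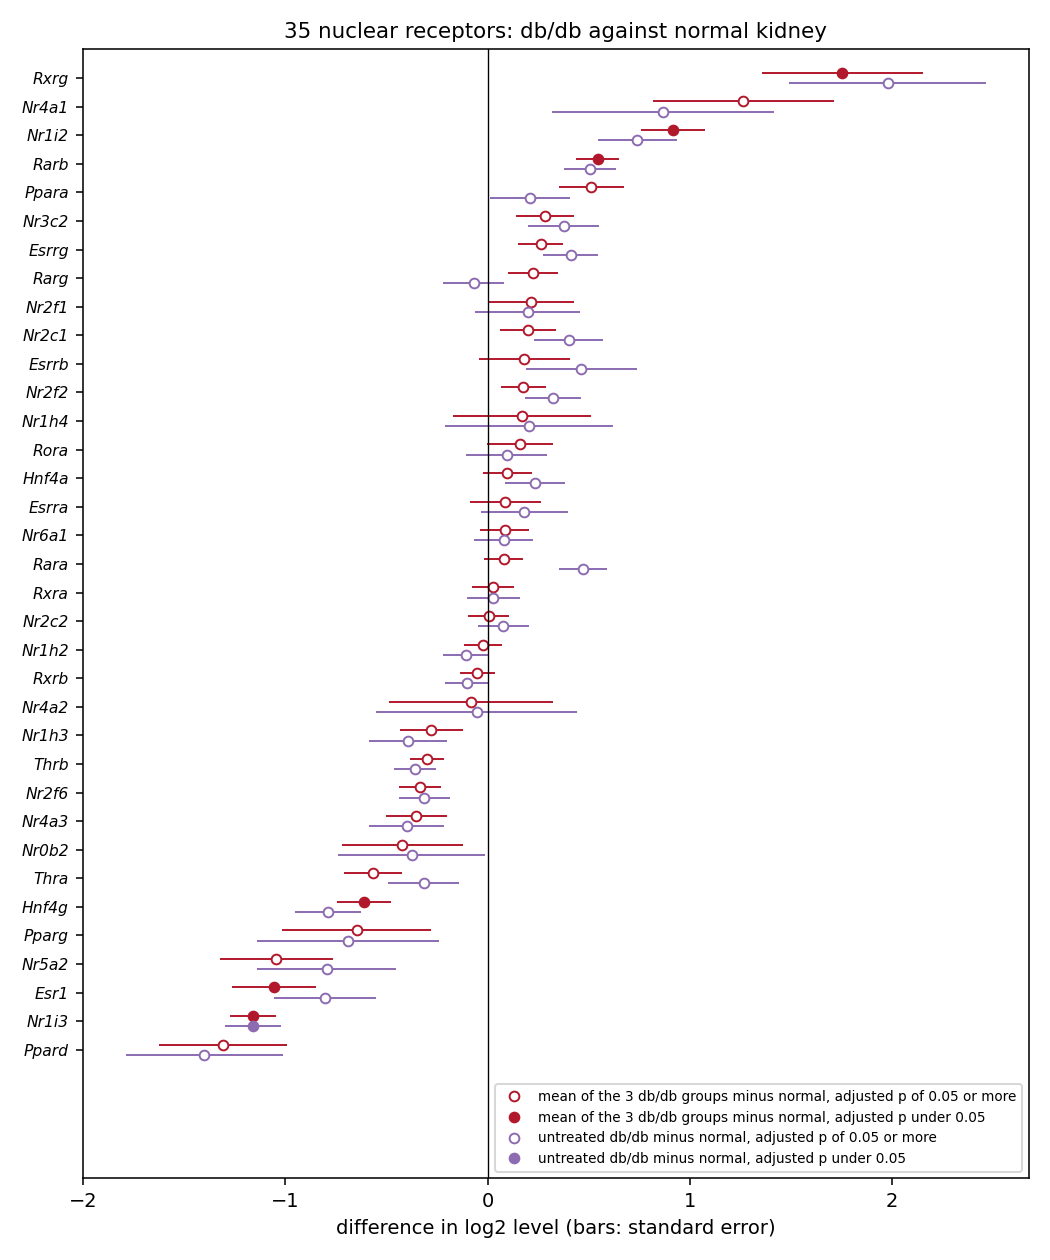
Each row is 1 of the 35 receptors tested and the x axis gives the difference in log2 level, with standard errors as bars, for the mean of the 3 db/db groups minus normal (red) and for untreated db/db minus normal (purple). Filled points have an adjusted p under 0.05. Nr1i3 is filled for both, while Rxrg, Nr1i2, Rarb, Esr1 and Hnf4g are filled for the mean of the 3 groups alone.

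The calls depended on which arrays entered the model, and the share of all genes called moved with them. In the mean of the 3 db/db groups, 1 receptor was called without the first normal array (Rxrg, with 0.832% of all genes called) and 1 without the second (Ppard, 0.604%). Leaving out any single untreated or control miRNA array left the call of Nr1i3 alone, with 1.95% to 3.33% of all genes called. Without the first mimic array there were 8 calls, with 21.3% of all genes called, and without the second 12, with 26.4%. For untreated db/db against normal 6 receptors were called without either mimic array, with 14.6% of all genes. The count was 1 without the first normal array (Rxrg, 0.165%) or either control miRNA array (Nr1i3, 0.832%), and 0 without the second normal array (0.224%) or an untreated array (0.0805% and 0.0984%). For control miRNA against normal the share of all genes called rose without either mimic array and fell without any other array. The count of receptors also rose without either mimic array, rested on Rxrg alone without the first normal array and fell without any of the others. For the mimic against normal it was 1 without the first normal array (Rxrg, 1.46%), 1 without the second (Ppard, 1.55%) and 2 without any single untreated or control miRNA array (Nr1i3 and Thra, 3.12% and 3.92%). It was 4 without the first mimic array (8.17%) and 7 without the second (28.1%). The F test called more receptors, and a larger share of all genes, without either mimic array, and fewer of both without any other array.

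The xenobiotic sensors Nr1i3 and Nr1i2 had the smallest p-values of the receptors in the mean of the 3 db/db groups against normal, and they differed in opposite directions. Nr1i3 encodes the constitutive androstane receptor (CAR) and Nr1i2 the pregnane X receptor (PXR), which in liver induce enzymes and transporters that clear drugs, bile acids and steroids. The Nr1i3 probe (chr1:173147776-173147835 in the array's mm9 annotation) had log2 levels of -3.14 and -3.15 in mimic kidneys, -2.96 and -3.19 in control miRNA kidneys, -3.20 and -3.01 in untreated db/db kidneys, and -2.01 and -1.88 in normal kidneys. All 6 db/db arrays lay about 1 log2 unit below both normal arrays, and the 3 db/db groups overlapped. Nr1i3 was 2.23-fold lower in untreated db/db than in normal kidneys (log2 difference -1.16 ± 0.14 SE, adjusted p = 0.0194) and 2.24-fold lower in the mean of the 3 db/db groups (adjusted p = 0.00695). The log2 difference from normal was -1.20 ± 0.14 after the mimic (adjusted p = 0.00912) and -1.13 ± 0.14 after control miRNA (adjusted p = 0.0276). The untreated call ended without either normal array or either untreated array, at adjusted p up to 0.155. In the mean of the 3 groups the call ended only without a normal array, at adjusted p up to 0.0651. The mimic call ended without a normal array, and the control miRNA call without any array other than a mimic one. With array weights or with only the compared arrays the mimic call ended too (adjusted p up to 0.0916). With no filter the control miRNA call ended (adjusted p = 0.0609).

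For Nr1i2 (chr16:38248745-38248804, mm9) the log2 levels were -0.49 and -1.05 in mimic kidneys, -0.64 and -0.78 in control miRNA kidneys, -0.98 and -1.02 in untreated db/db kidneys, and -1.78 and -1.70 in normal kidneys. Every db/db array lay above both normal arrays. Nr1i2 was 1.89-fold higher in the mean of the 3 db/db groups (0.92 ± 0.16 SE, adjusted p = 0.0234) and 1.97-fold higher after the mimic than in normal kidneys (adjusted p = 0.0375). Both calls ended when any single normal, untreated or control miRNA array was left out. The mimic call also ended with no filter, with array weights and with only the compared arrays (adjusted p up to 0.195). In untreated db/db kidneys alone the difference from normal was 0.74 ± 0.19 (adjusted p = 0.0897); without either mimic array this comparison was called (lowest adjusted p 0.0144). Among 9 measured genes of a list of CAR and PXR target genes, 1 rose in the mean of the 3 db/db groups and 0 fell. Of all genes, 4.94% rose and 6.19% fell there. Abcc3, an export pump for conjugates, had a log2 level of 1.15 ± 0.14 in mimic kidneys, 0.80 ± 0.52 in control miRNA kidneys, 0.86 ± 0.27 in untreated db/db kidneys and -0.55 ± 0.55 in normal kidneys (SD, n = 2 each; adjusted p = 0.0285). Cyp2b10 is a cytochrome P450 that CAR induces in liver. It was well above background on 1 of 2 mimic arrays, 0 control miRNA arrays, 0 untreated db/db arrays and both normal arrays. The comparison of the 3 db/db groups with normal gave an adjusted p of 0.0589. Cyp2b10 passed the filter only through the normal group, where it is high, so its direction is partly fixed by the filter.

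**Figure D2:**
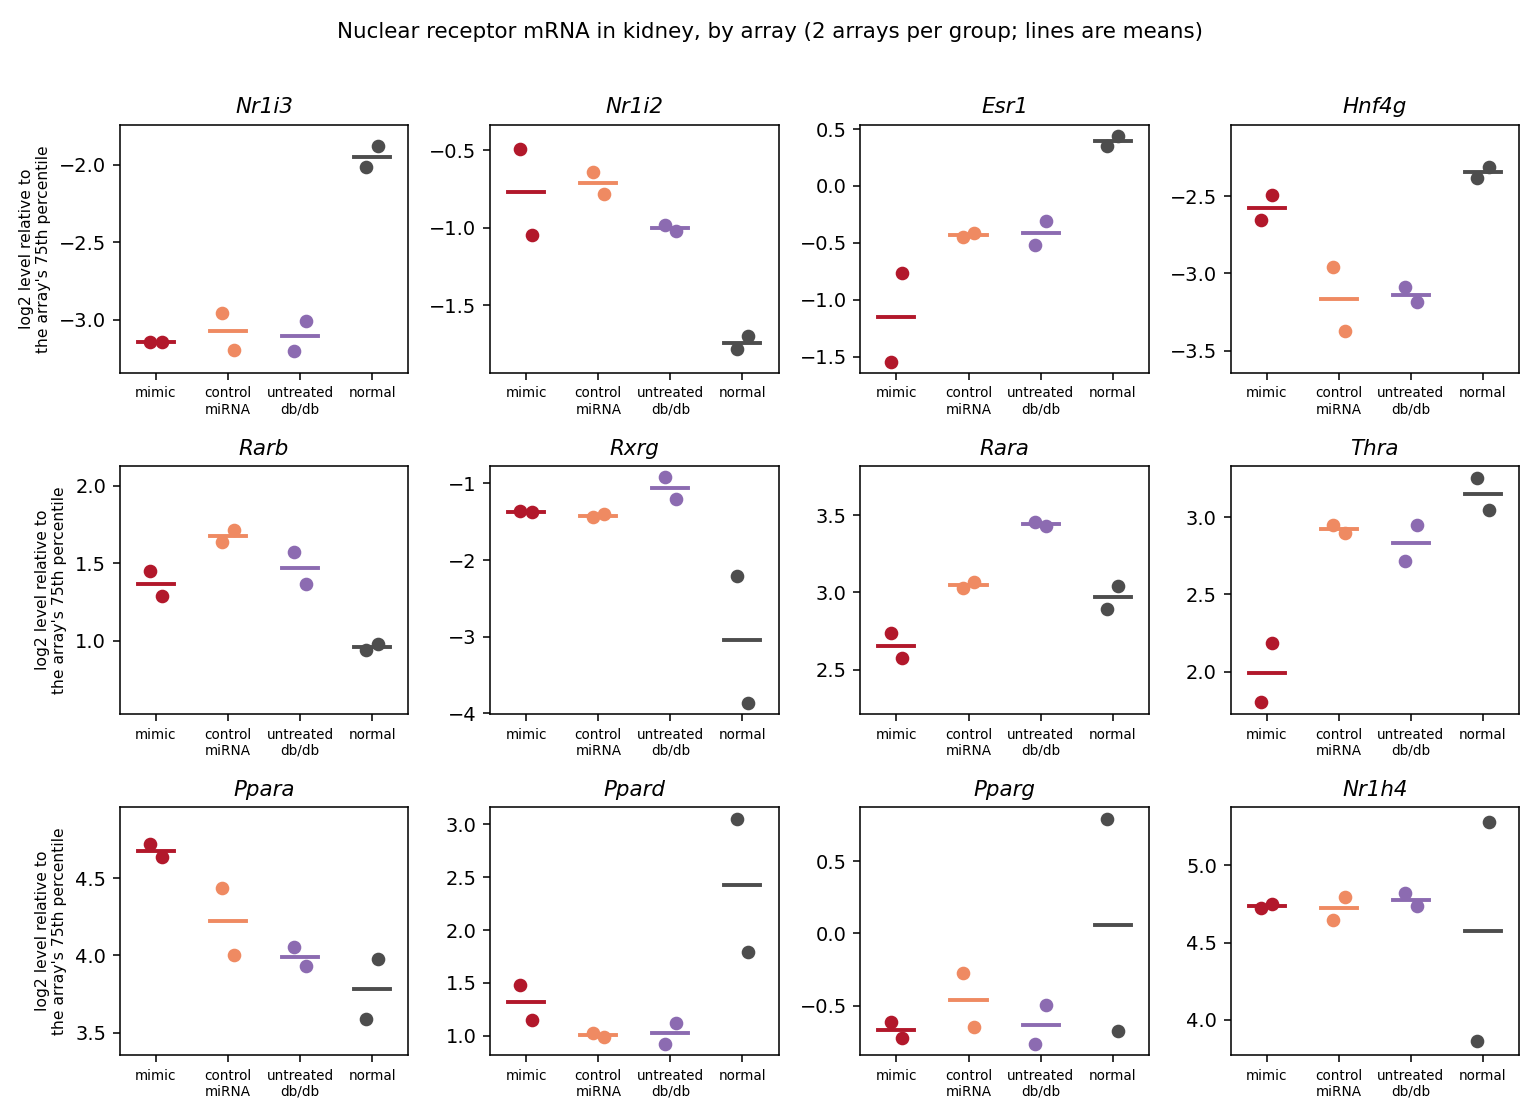
Log2 level relative to the array's 75th percentile (y axis) for 12 receptors in mimic, control miRNA, untreated db/db and normal kidneys (x axis); points are single arrays, lines the mean of the 2 arrays of a group. Nr1i3 and Esr1 lie below both normal arrays in all 6 db/db arrays, Nr1i2, Rarb and Rxrg above them, and the normal arrays are far apart for Ppard, Pparg, Nr1h4 and Rxrg.

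Of the bile acid and oxysterol receptors none was called. Nr1h4, the bile acid receptor FXR, had log2 levels of 4.72 and 4.75 in mimic kidneys, 4.65 and 4.79 in control miRNA kidneys, 4.82 and 4.73 in untreated db/db kidneys, and 3.87 and 5.28 in normal kidneys. The 6 db/db arrays lay within a narrow band between the 2 normal arrays, whose gap of 1.41 was the third widest between replicates among the receptors. The second kept Nr1h4 probe gave another picture. Its normal arrays were close together, at -0.63 and -0.73, and all 6 db/db arrays lay below them, between -0.75 and -1.43. That probe differed from normal by -0.31 in the mean of the 3 db/db groups. Nr0b2 (SHP), which FXR induces in liver and which lacks a DNA-binding domain, differed from normal by -0.42 ± 0.30 in the mean of the 3 db/db groups (adjusted p = 0.375). Nr5a2 (LRH-1), a partner of SHP in the control of bile acid synthesis, had -5.46 and -4.96 in mimic kidneys, -4.43 and -4.86 in control miRNA kidneys, -4.80 and -4.30 in untreated db/db kidneys and -3.36 and -4.16 in normal kidneys. It was well above background on 0 mimic arrays and on both normal arrays, at least 2.36-fold lower after the mimic than in normal kidneys, and was not called (adjusted p = 0.0552). Nr5a2 passed the filter only through the normal group, where it is high, so its direction is partly fixed by the filter. Slc10a2, the sodium-dependent bile acid transporter, and Cyp7b1, an oxysterol hydroxylase, both fell in the mean of the 3 db/db groups. They were 2 of 8 measured genes of the FXR and bile acid list, of which 0 rose. Of all genes, 4.94% rose and 6.19% fell there. Cyp7b1 stood at 1.01 ± 0.22 in mimic kidneys, 1.97 ± 0.12 in control miRNA kidneys, 1.84 ± 0.21 in untreated db/db kidneys and 6.21 ± 0.14 in normal kidneys (SD, n = 2 each; adjusted p = 0.000235). Cyp7b1 is also known as an androgen-dependent gene of mouse kidney.

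The liver X receptors, sensors of oxysterols that drive cholesterol export, were Nr1h3 (LXRα) and Nr1h2 (LXRβ). Nr1h3 differed from normal by -0.28 ± 0.16 in the mean of the 3 db/db groups (adjusted p = 0.278) and Nr1h2 by -0.02 ± 0.09 (adjusted p = 0.892). Of 13 LXR target genes, 1 rose and 2 fell, where 4.94% of all genes rose and 6.19% fell. Apoe, an apolipoprotein that carries cholesterol, rose by 1.85 ± 0.14 (adjusted p = 0.00372). Lpl, the lipase of circulating triglycerides, fell by 2.05 (log2, adjusted p = 0.00821), and Pltp, a phospholipid transfer protein, fell by 0.68 (adjusted p = 0.0131). Macrophages also use LXRs, and the summed level of 7 macrophage markers was 11.6 and 20.1 times the 75th percentile in mimic kidneys, 11.9 and 13.1 in control miRNA kidneys, 11.1 and 11.5 in untreated db/db kidneys, and 24.6 and 27.1 in normal kidneys. Their part in these differences was not tested.

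The peroxisome proliferator-activated receptors bind fatty acids and their derivatives: PPARα drives fatty acid burning, PPARδ is widely expressed, and PPARγ is the receptor of fat cells. Ppara (chr15:85632110-85632169, mm9) had log2 levels of 4.72 and 4.63 in mimic kidneys, 4.44 and 4.00 in control miRNA kidneys, 4.05 and 3.93 in untreated db/db kidneys, and 3.59 and 3.97 in normal kidneys. Both mimic arrays lay above all other arrays, and the untreated and normal arrays overlapped. Ppara was 1.86-fold higher after the mimic than in normal kidneys (0.89 ± 0.20 SE, adjusted p = 0.0480). That call ended when any array other than the second mimic array was left out, with adjusted p up to 0.165. It also ended with no filter, with the mean over probes, with array weights and with only the compared arrays (adjusted p up to 0.238). The difference was 0.21 ± 0.20 in untreated db/db kidneys (adjusted p = 0.557).

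Ppard had log2 levels of 1.48 and 1.15 in mimic kidneys, 1.03 and 0.99 in control miRNA kidneys, 0.92 and 1.12 in untreated db/db kidneys, and 3.06 and 1.79 in normal kidneys. Every db/db array lay below both normal arrays, which were 1.26 apart, and the mean of the 3 db/db groups was 2.48-fold lower without passing the test (adjusted p = 0.0506). The log2 difference was -0.68 without the first normal array and -1.94 without the second, against -1.31 with all arrays. It was called without the second normal array or without either mimic array (lowest adjusted p 0.0357). Pparg stood at -0.61 and -0.72 in mimic kidneys, -0.27 and -0.65 in control miRNA kidneys, -0.76 and -0.50 in untreated db/db kidneys, and 0.80 and -0.68 in normal kidneys. Only the first normal array was high, and the gap of 1.47 in the normal group was the second widest among the receptors. In that array the summed level of 8 fat cell markers was 107 times the 75th percentile, against 14.9 in the second normal array and 13.8 to 19.1 in the 6 db/db arrays. The sum of 7 urothelium markers was 5.91 and 1.84 in mimic kidneys, 9.86 and 2.31 in control miRNA kidneys, 1.66 in both untreated db/db kidneys, and 20.6 and 5.41 in normal kidneys, again highest in the first normal array. The part of either in the Pparg and Ppard values was not tested.

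Of 20 target genes of the PPARs, 4 rose and 1 fell in the mean of the 3 db/db groups, where 4.94% of all genes rose and 6.19% fell. The list median was 0.47 against -0.02 for all genes. Cyp4a14, a fatty acid hydroxylase, had a log2 level of 1.27 ± 0.37 in mimic kidneys, 0.98 ± 0.88 in control miRNA kidneys, 1.04 ± 0.09 in untreated db/db kidneys and -3.71 ± 0.95 in normal kidneys (SD, n = 2 each; adjusted p = 0.00614). The fatty acid carrier Fabp1 rose by 3.60 ± 0.40 SE (adjusted p = 0.00890) and Cyp4a10, another fatty acid hydroxylase, by 1.93 ± 0.42 (adjusted p = 0.0401). The fatty acid transporter Cd36 was the gene that fell (log2 difference -3.101 ± 0.46 SE, adjusted p = 0.0170). In normal kidneys Cyp4a14 and Fabp1 were well above background on 1 of 2 arrays, so both passed the filter through the db/db groups, and their sizes rest on a normal level near background. In untreated db/db kidneys 3 of the 20 rose, Cyp4a14 and Fabp1 among them, and 1 fell (Cd36), with 3.34% of all genes called there.

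**Figure D3:**
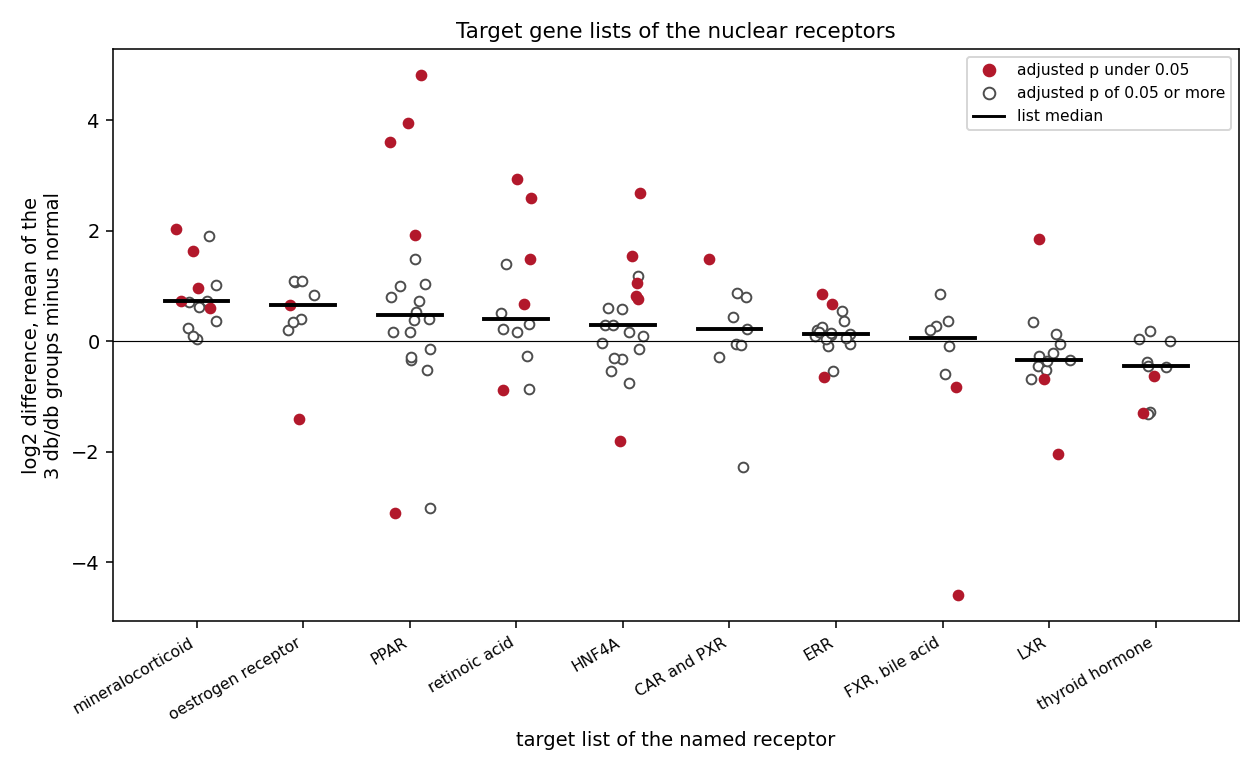
Log2 difference between the mean of the 3 db/db groups and normal (y axis) for the measured genes of 10 receptor target lists (x axis), 1 point per gene, filled where the adjusted p is under 0.05; black lines are list medians. The mineralocorticoid list has the highest median, 0.72, and the thyroid hormone list the lowest, -0.46.

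The HNF4 receptors and their relatives include orphan receptors that hold epithelial identity. Hnf4a, a master regulator of proximal tubule genes, differed from normal by 0.10 ± 0.12 in the mean of the 3 db/db groups (adjusted p = 0.613). Hnf4g, its close paralogue (chr3:3657177-3657236, mm9), had log2 levels of -2.66 and -2.50 in mimic kidneys, -2.96 and -3.37 in control miRNA kidneys, -3.09 and -3.19 in untreated db/db kidneys, and -2.38 and -2.31 in normal kidneys. All 6 db/db arrays lay below both normal arrays, and both mimic arrays lay above the other 4 db/db arrays. Hnf4g was 1.53-fold lower in the mean of the 3 groups (adjusted p = 0.0402), a call that ended when any single normal, untreated or control miRNA array was left out (adjusted p up to 0.164). It ended too with quantile normalization, no filter or array weights (adjusted p up to 0.0891), and over these and the other processing settings the difference lay between -0.61 and -0.37. In untreated db/db kidneys it differed by -0.79 ± 0.16 (adjusted p = 0.0599); without either mimic array this was called (lowest adjusted p 0.0320).

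Of 19 measured HNF4A targets of the proximal tubule, 5 rose and 1 fell in the mean of the 3 groups, where 4.94% of all genes rose and 6.19% fell; the median was 0.30 against -0.02 for all genes. Pck1, the enzyme that commits carbon to new glucose, rose by 1.54 ± 0.21 (adjusted p = 0.0129), and Slc2a2, a glucose transporter, by 0.81 ± 0.19 (adjusted p = 0.0489). Ttr (well above background on 1 of 2 normal arrays), the carrier of thyroid hormone and retinol-binding protein, rose by 2.67 ± 0.34 (adjusted p = 0.0114), Pklr, a pyruvate kinase, by 1.06 ± 0.12 (adjusted p = 0.00890), and Apob, an apolipoprotein, by 0.77 ± 0.15 (adjusted p = 0.0312). Ugt2b38, a glucuronosyltransferase, fell by 1.80 (log2, adjusted p = 0.00840). The proximal tubule marker sum given above was lowest in the first mimic array. Among the COUP-TF receptors, which repress many RXR-dependent genes, Nr2f6 had log2 levels of 5.16 and 5.35 in mimic kidneys, 5.23 and 5.30 in control miRNA kidneys, 5.23 and 5.35 in untreated db/db kidneys, and 5.54 and 5.67 in normal kidneys. On this probe Nr2f6 lay lower in all 6 db/db arrays than in both normal arrays and was not called (-0.33 ± 0.10, adjusted p = 0.0861). Its second kept probe differed by -0.05, and its db/db arrays (-1.87 to -2.09) overlapped the normal ones (-1.85 and -2.04). Nr2f2 and Nr2f1 differed by 0.18 ± 0.11 and 0.22 ± 0.21 (adjusted p = 0.328 and 0.522). The testicular orphan receptors Nr2c1 and Nr2c2 and the germ cell factor Nr6a1 differed by 0.20, 0.01 and 0.08, with adjusted p from 0.366 to 0.978.

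Retinoic acid receptors (RARs) bind DNA as a pair with an RXR. Rarb (chr14:17263511-17263570, mm9), the retinoic acid receptor whose own gene is a classic retinoic acid target, had log2 levels of 1.45 and 1.29 in mimic kidneys, 1.64 and 1.72 in control miRNA kidneys, 1.57 and 1.36 in untreated db/db kidneys, and 0.94 and 0.98 in normal kidneys. Every db/db array lay above both normal arrays. It was 1.46-fold higher in the mean of the 3 db/db groups (0.54 ± 0.10 SE, adjusted p = 0.0297), and a second probe gave 0.64 ± 0.12. The first call ended when any single normal, untreated or control miRNA array was left out. With no filter or with array weights it ended as well (adjusted p up to 0.0643). Rxrg (chr1:169569624-169569683, mm9), the RXR with the most restricted expression, had -1.36 and -1.38 in mimic kidneys, -1.44 and -1.40 in control miRNA kidneys, -0.92 and -1.20 in untreated db/db kidneys, and -2.21 and -3.86 in normal kidneys. The db/db arrays all lay above the normal ones, and the normal gap of 1.65 was the widest between replicates of any receptor. Rxrg was 3.38-fold higher in the mean of the 3 groups (1.76 ± 0.40, adjusted p = 0.0430); the difference was 2.58 without the first normal array, where the call held, and 0.93 without the second, where it ended. The call also ended without any single untreated or control miRNA array. With no filter or with array weights it ended too (adjusted p up to 0.0784).

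The upstream windows of these 2 genes are shown because both rose in db/db kidneys and can be read against the half-sites of the family. Each is the 250 bases before an annotated start, 5′ to 3′ on the gene's strand, from RefSeq (GRCm38.p6). Rarb lies at chr14:16575477-16575726 on the minus strand, and the Rxrg window at chr1:167618015-167618264 on the plus strand is the second of its 2 annotated windows; the first held no match. Capitals mark matches to AGGTCA, to AGTTCA or to the fixed letters of a spaced repeat, GTTCA and again GTTCA with 6 bases of any kind between, searched on both strands. The AGTTCA in Rarb overlaps the spaced repeat. The 3 strings were settled after these windows had been looked at.
Rarb: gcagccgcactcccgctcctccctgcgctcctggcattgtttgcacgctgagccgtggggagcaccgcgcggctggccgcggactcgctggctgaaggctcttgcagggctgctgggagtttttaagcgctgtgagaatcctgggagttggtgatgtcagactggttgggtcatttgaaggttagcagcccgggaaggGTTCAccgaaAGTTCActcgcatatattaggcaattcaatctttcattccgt
Rxrg: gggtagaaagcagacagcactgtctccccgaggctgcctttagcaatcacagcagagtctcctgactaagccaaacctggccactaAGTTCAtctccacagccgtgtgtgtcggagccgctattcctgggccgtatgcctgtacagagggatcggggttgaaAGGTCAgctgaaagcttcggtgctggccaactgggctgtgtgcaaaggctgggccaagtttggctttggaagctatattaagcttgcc

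The spaced repeat in Rarb began 52 bases before the start. Among all 32851 windows of this length, 22 held the spaced repeat, 0.067%, and Rarb was the only receptor of 34 with a window that did. The repeat was settled after the Rarb window was seen, so its match there was fixed in advance and this share is no test of it. Hnf4g and Thra had no window to search. The receptors had 54 windows, of which 9, or 16.7%, held AGGTCA, against 14.0% of all windows. AGTTCA was in 7, or 13.0%, against 11.8%, so both shares were near the background. Windows of Nr1i3, Nr1i2 and Esr1 held none of the 3 strings. Such matches describe letters and show no binding.

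Rara had log2 levels of 2.74 and 2.58 in mimic kidneys, 3.03 and 3.07 in control miRNA kidneys, 3.45 and 3.43 in untreated db/db kidneys, and 2.89 and 3.04 in normal kidneys. The untreated arrays were the highest and the mimic arrays the lowest, without overlap between these 2 groups and any other. The untreated difference from normal was 0.47 ± 0.12 (adjusted p = 0.0842), which became a call without either mimic array (lowest adjusted p 0.0401); the second Rara probe gave -0.00 ± 0.14. Rarg differed from normal by 0.22 ± 0.12 in the mean of the 3 groups (adjusted p = 0.264), while Rxra and Rxrb, the broadly expressed RXRs, differed by 0.03 ± 0.11 and -0.05 ± 0.09 (adjusted p = 0.886 and 0.733). Rora, an orphan receptor with a cholesterol-like ligand pocket, differed by 0.16 ± 0.16 (adjusted p = 0.544).

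Of 12 measured retinoic acid target genes, 4 rose and 1 fell in the mean of the 3 groups, where 4.94% of all genes rose and 6.19% fell. Cyp26b1, which breaks retinoic acid down, stood at 1.501 ± 1.42 in mimic kidneys, 2.05 ± 0.19 in control miRNA kidneys, 1.86 ± 0.01 in untreated db/db kidneys and -1.14 ± 0.79 in normal kidneys (SD, n = 2 each; adjusted p = 0.0272). The retinoic acid-binding protein gene Crabp1 was well above background on 0 normal arrays and on all 6 db/db arrays, at least 3.08-fold higher in the mean of the db/db arrays (adjusted p = 0.0323). It passed the filter only through the db/db groups, so its direction is partly fixed by the filter, and the other 3 that rose were above background in normal kidneys too. Rarres1 rose by 1.49 ± 0.17 SE (adjusted p = 0.00904) and Rarres2 by 0.67 ± 0.16 (adjusted p = 0.0466). Rdh10, which makes the precursor of retinoic acid, fell by 0.88 (log2, adjusted p = 0.0141).

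By their brightest probes, but not by their other kept probes, both thyroid hormone receptors lay lower in every db/db array than in both normal arrays. Thra passed the test after the mimic. Thra (chr11:98626356-98626415, mm9), which encodes thyroid hormone receptor α, had log2 levels of 1.80 and 2.19 in mimic kidneys, 2.95 and 2.89 in control miRNA kidneys, 2.71 and 2.95 in untreated db/db kidneys, and 3.25 and 3.05 in normal kidneys. The mimic arrays lay below all others. On the second Thra probe, untreated db/db arrays (0.38 and 0.67) and control miRNA arrays (0.65 and 0.51) overlapped the normal ones (0.60 and 0.56). Its differences from normal were -0.06 in untreated db/db kidneys, -0.0006 after control miRNA and -0.83 after the mimic. The third probe gave -0.36, -0.35 and -1.02, and 1 untreated array (-1.3124) lay above 1 normal array (-1.3146). Thra was 2.23-fold lower after the mimic than in normal kidneys (-1.15 ± 0.17 SE, adjusted p = 0.0176), a call that ended without either normal array. That call also ended with the mean over probes, with array weights and with only the compared arrays (adjusted p up to 0.133). In the mean of the 3 groups the difference was -0.57 ± 0.14 (adjusted p = 0.0546), which was called without either mimic array (lowest adjusted p 0.0168). Thrb, thyroid hormone receptor β, had levels of 0.79 and 0.83 in mimic kidneys, 0.82 and 0.89 in control miRNA kidneys, 0.77 and 0.72 in untreated db/db kidneys, and 1.11 and 1.10 in normal kidneys. On this probe the 6 db/db arrays lay below both normal arrays, and Thrb was not called (-0.30 ± 0.09, adjusted p = 0.0728). On the second kept Thrb probe, control miRNA arrays (-2.95 and -2.55) and normal arrays (-2.76 and -2.43) overlapped. That probe differed by -0.35 in the mean of the 3 groups. Of 10 thyroid hormone target genes 0 rose and 2 fell, where 4.94% of all genes rose and 6.19% fell. These 2 were Me1, malic enzyme, by 1.30 (log2, adjusted p = 0.00671), and Gpd2, a mitochondrial glycerol phosphate dehydrogenase, by 0.64 (adjusted p = 0.0335).

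Esr1, the oestrogen receptor α gene (chr10:5341167-5341226, mm9), had log2 levels of -1.54 and -0.76 in mimic kidneys, -0.45 and -0.41 in control miRNA kidneys, -0.52 and -0.31 in untreated db/db kidneys, and 0.35 and 0.44 in normal kidneys. All 6 db/db arrays lay below both normal arrays, and the mimic arrays were the lowest. Esr1 was 2.08-fold lower in the mean of the 3 groups (-1.06 ± 0.21 SE, adjusted p = 0.0304) and 2.92-fold lower after the mimic (adjusted p = 0.0217). Both calls ended when any single normal, untreated or control miRNA array was left out. The mimic call also ended with array weights and with only the compared arrays (adjusted p up to 0.140). With no filter the call in the mean of the 3 groups ended (adjusted p = 0.0599). In untreated db/db kidneys the difference was -0.80 ± 0.25 (adjusted p = 0.125), called without either mimic array (lowest adjusted p 0.0146). Its other 2 kept probes were lower too in the mean of the 3 groups, with differences of -1.405 ± 0.22 and -1.08 ± 0.26. The probe that gave -1.08 was well above background on only 3 of 8 arrays. On that probe the untreated arrays (-4.33 and -4.16) overlapped the normal ones (-4.39 and -3.44). Of 9 measured oestrogen receptor targets, 1 rose (Greb1, by 0.65 ± 0.15, adjusted p = 0.0465) and 1 fell (Cyp2a4, with a difference of -1.403, adjusted p = 0.0264). Among all genes 4.94% rose and 6.19% fell in the mean of the 3 groups.

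Nr3c2, the mineralocorticoid receptor, had log2 levels of 0.88 and 1.33 in mimic kidneys, 1.33 and 1.29 in control miRNA kidneys, 1.42 and 1.27 in untreated db/db kidneys, and 1.06 and 0.88 in normal kidneys, and the db/db and normal arrays overlapped (0.29 ± 0.14 in the mean of the 3 groups, adjusted p = 0.228). Of 14 of its targets and other aldosterone response genes, 5 rose and 0 fell, where 4.94% of all genes rose and 6.19% fell. The difference was positive for 14 of 14, against 47.7% of all genes, and the median was 0.72 against -0.02. Per1, a clock gene, stood at 3.75 ± 0.14 in mimic kidneys, 3.21 ± 0.06 in control miRNA kidneys, 3.72 ± 0.00 in untreated db/db kidneys and 1.92 ± 0.06 in normal kidneys (SD, n = 2 each; adjusted p = 0.00238). Sgk1, a kinase that raises sodium transport, rose by 2.04 ± 0.40 SE (adjusted p = 0.0314), and Scnn1a, a subunit of the epithelial sodium channel, by 0.61 ± 0.14 (adjusted p = 0.0472). Hsd11b2, which shields the receptor from glucocorticoids, rose by 0.73 ± 0.15 (adjusted p = 0.0333) and Tsc22d3 by 0.96 ± 0.17 (adjusted p = 0.0251). Per1, Sgk1 and Tsc22d3 are glucocorticoid responders as well. The summed level of 5 distal convoluted tubule markers was 70.2 and 199 times the 75th percentile in mimic kidneys, 152 and 200 in control miRNA kidneys, 188 and 217 in untreated db/db kidneys, and 60.9 and 77.4 in normal kidneys. The sum of 6 collecting duct markers was 45.6 and 91.8 in mimic kidneys and 79.3 and 80.0 in control miRNA kidneys. It was 98.3 and 79.1 in untreated db/db kidneys and 109 and 79.2 in normal kidneys. Slc12a3 is on both the distal convoluted tubule list and the target list, and Scnn1g and Hsd11b2 are on both the collecting duct list and the target list. The part of either sum in these values was not tested.

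None of the oestrogen-related receptors, which drive mitochondrial genes without a known hormone, was called: Esrra, Esrrb and Esrrg differed from normal by 0.09 ± 0.17, 0.18 ± 0.22 and 0.26 ± 0.11 in the mean of the 3 groups (adjusted p = 0.766, 0.618 and 0.169). Esrrg had 2.77 and 2.85 in mimic kidneys, 2.90 and 2.88 in control miRNA kidneys, 3.15 and 3.00 in untreated db/db kidneys, and 2.52 and 2.80 in normal kidneys. Untreated and normal arrays did not overlap (0.41 ± 0.14, adjusted p = 0.137). Of 17 measured ERR targets, 2 rose (the potassium channel genes Kcnj10, by 0.67, and Kcne1, by 0.86) and 1 fell (Acadm, a fatty acid oxidation enzyme, by 0.64, adjusted p = 0.0312). Among all genes 4.94% rose and 6.19% fell in the mean of the 3 groups. The NR4A genes are immediate-early genes, and Nr4a1 and Nr4a2 had replicate gaps over 2-fold in the normal group, while Nr4a3 did not. Nr4a1 had 2.44 and 1.33 in mimic kidneys, 1.91 and 2.66 in control miRNA kidneys, 1.85 and 1.13 in untreated db/db kidneys, and 1.19 and 0.05 in normal kidneys, and the untreated arrays overlapped the normal ones while the mimic and control miRNA arrays lay above them (1.26 ± 0.45 in the mean of the 3 groups, adjusted p = 0.119). Nr4a2 and Nr4a3 differed by -0.08 ± 0.41 and -0.35 ± 0.15 (adjusted p = 0.908 and 0.173). Replicates differed by more than 2-fold for 7 of 35 receptors in the normal group, 1 in the mimic group and 0 in the other 2. Over all genes the share was 3.09% in the normal group and 11.1% in the mimic group. It was 1.6% in the control miRNA group and 0.751% in the untreated group, so over all genes the mimic replicates were the furthest apart.

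The study also asked what the miR-181b-5p mimic changes. Between mimic and control miRNA kidneys 0 of 35 receptors were called, with 0.00% of all genes called; 7 had an unadjusted p under 0.05, 20.0%, against 9.11% of all genes. Between mimic and untreated db/db kidneys it was 0 as well, with 0.00% of all genes called, and 8 had an unadjusted p under 0.05, 22.9% against 13.9%. Between control miRNA and untreated db/db kidneys again 0 were called, with 0.00% of all genes called, and 2 had an unadjusted p under 0.05, 5.71% against 3.25%. Without the second mimic array 4 receptors were called between mimic and control miRNA, with 13.6% of all genes, and 7 between mimic and untreated db/db, with 18.7%; the lone mimic array was then assumed to vary like the other groups. Without the first mimic array both counts were 0, with 0.510% and 0.00% of all genes called.

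**Figure D4:**
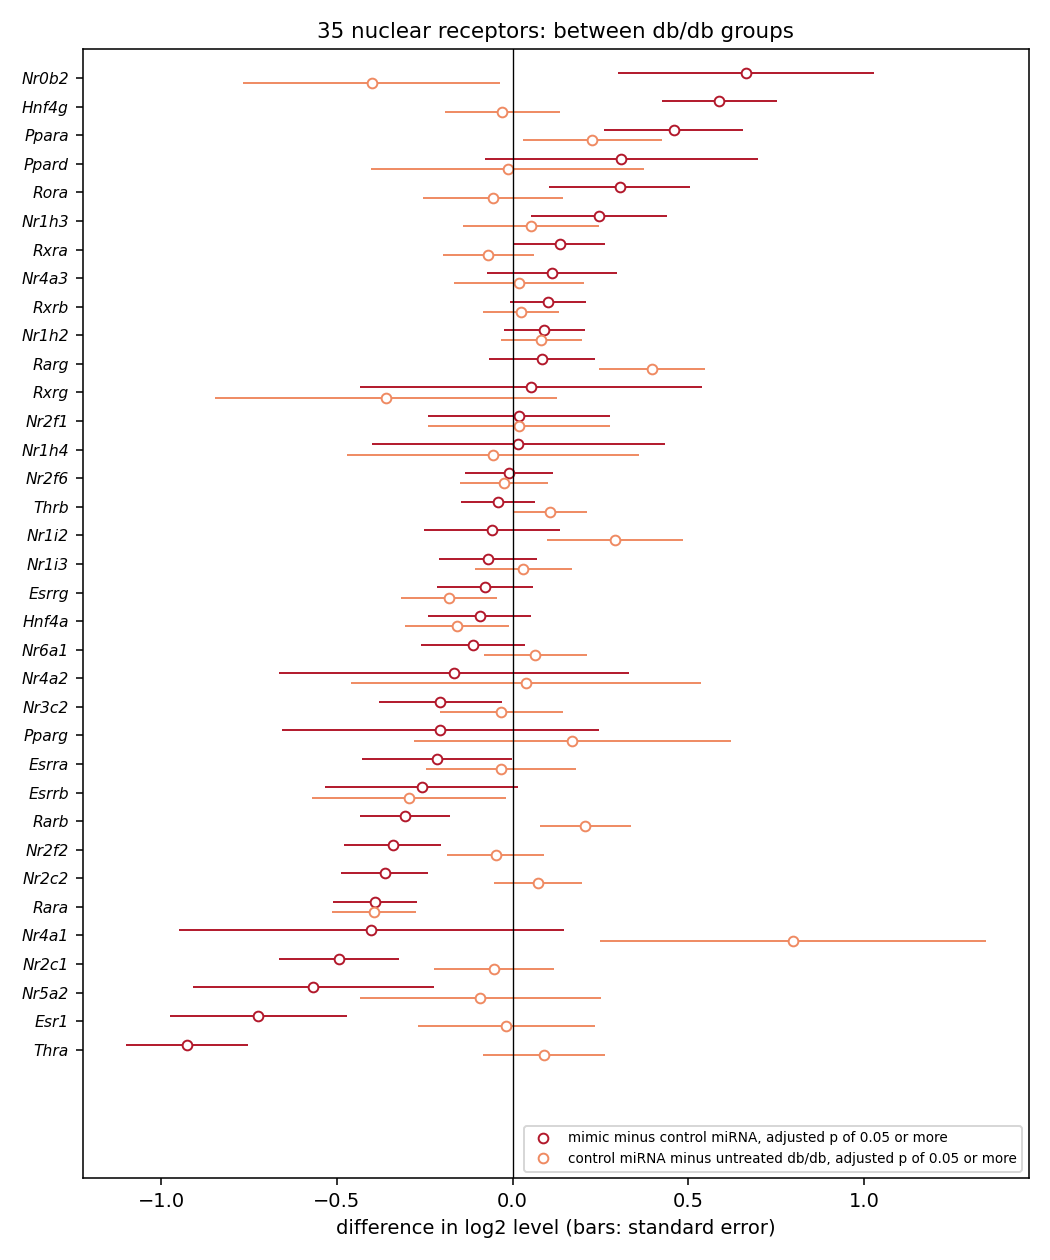
Differences in log2 level between db/db groups (x axis, bars are standard errors) for the 35 receptors tested: mimic minus control miRNA in red and control miRNA minus untreated db/db in orange. All points are open, since no adjusted p is under 0.05; Thra is the lowest red point, at -0.93, and Rara lies at -0.39 for both.

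Thra had the smallest p between mimic and control miRNA kidneys. With the array values given above, it was 1.90-fold lower after the mimic (-0.93 ± 0.17 SE, adjusted p = 0.179). Its other 2 kept probes gave -0.83 ± 0.26 and -0.67 ± 0.30. It was called without the second mimic array (adjusted p = 0.0127), as was mimic minus untreated db/db (adjusted p = 0.0138, against 0.157 with all arrays). Hnf4g was higher after the mimic than after control miRNA by 0.59 ± 0.16, without passing the test (adjusted p = 0.376), and Nr2c1 was 1.41-fold lower (adjusted p = 0.471; 0.0289 without the second mimic array). Nr2c1 had -0.19 and 0.25 in mimic kidneys, 0.44 and 0.60 in control miRNA kidneys, 0.60 and 0.55 in untreated db/db kidneys, and 0.11 and 0.24 in normal kidneys. Nr2c2 had 0.61 and 0.85 in mimic kidneys, 1.08 and 1.11 in control miRNA kidneys, 1.02 and 1.02 in untreated db/db kidneys, and 0.99 and 0.90 in normal kidneys (-0.36 ± 0.12 for mimic minus control miRNA, adjusted p = 0.467). For both genes the mimic arrays lay below the other 4 db/db arrays. Esr1 differed by -0.72 ± 0.25 (adjusted p = 0.472).

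Rara differed in one direction in each step: -0.39 ± 0.12 for mimic minus control miRNA (adjusted p = 0.418), -0.39 ± 0.12 for control miRNA minus untreated db/db (adjusted p = 1.000) and -0.79 ± 0.12 for mimic minus untreated db/db (adjusted p = 0.115; 0.0199 without the second mimic array). These comparisons share arrays. Its second probe gave -0.13 ± 0.14, -0.27 ± 0.14 and -0.40 ± 0.14. Rarg had 1.29 and 1.07 in mimic kidneys, 1.09 and 1.09 in control miRNA kidneys, 0.82 and 0.58 in untreated db/db kidneys, and 0.88 and 0.66 in normal kidneys, with 0.40 ± 0.15 for control miRNA minus untreated db/db (adjusted p = 1.000). The second kept Rarg probe, a weak one, gave -0.01 in that comparison. Rarb differed by 0.21 ± 0.13, Nr1i2 by 0.29 ± 0.19 and Nr4a1 by 0.80 ± 0.55 in the same comparison. Thra and Rara were singled out against untreated db/db after their values were seen. Between mimic and control miRNA kidneys 0 of all 22369 genes were called. The count was therefore also 0 in the 10 target lists, the 15 coactivators and the 11 corepressors, and says nothing particular about them.

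Several receptors were measured by more than 1 probe, and these did not always move together. Of 20 receptors with several kept probes, 10 had the same sign in all of them in the mean of the 3 db/db groups against normal. For Rxrb the brightest probe gave -0.05 ± 0.09, while the other 2 gave 0.46 ± 0.09 (adjusted p = 0.0294) and 0.39 ± 0.09 (adjusted p = 0.0496), with p-values adjusted over 33640 probes. For Rarg the brightest probe gave 0.22 ± 0.12 and the second -0.69 ± 0.14 (adjusted p = 0.0314). That second probe lay near background, with a mean log2 level of -3.82, and was well above background on only 6 of 8 arrays. The brightest Hnf4a probe gave 0.10 ± 0.12 and its second -0.58 ± 0.14 (adjusted p = 0.0518). The second Hnf4a probe had log2 levels of 0.19 and 0.55 in mimic kidneys, 0.31 and 0.42 in control miRNA kidneys, 0.39 and 0.57 in untreated db/db kidneys, and 0.85 and 1.13 in normal kidneys, so that all 6 db/db arrays lay below both normal arrays. This set of probes was chosen after its values were seen.

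The receptors act through shared partners and beside other members of the superfamily. Of 15 coactivators 1 rose in the mean of the 3 db/db groups, Ncoa4, also known for the turnover of ferritin (0.60 ± 0.12, adjusted p = 0.0306), and 0 fell. Of 11 corepressors 1 rose, Nrip1, which represses metabolic genes (0.62 ± 0.11, adjusted p = 0.0267), and 0 fell. Of 8 measured further superfamily genes, 0 were called in that comparison, where 4.94% of all genes rose and 6.19% fell. Nr1d1, a repressor of the circadian clock, differed from normal after the mimic. It had -1.96 ± 0.08 in mimic kidneys, 0.45 ± 0.06 in control miRNA kidneys, 0.55 ± 0.83 in untreated db/db kidneys and 0.58 ± 0.90 in normal kidneys (SD, n = 2 each; mimic against normal, adjusted p = 0.0375). It was not called between mimic and control miRNA kidneys (adjusted p = 0.223).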

How the data were processed

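Per the file headers, the authors' scanner files hold spot intensity from Agilent Feature Extraction 12.0.3.1 (version also in the submitters' processing notes), background-subtracted, on 1-colour Agilent arrays. The series table deposited by the authors holds a ratio per probe, the scaled intensity over the probe's median of all arrays, found from its values; its column medians were 0.977 and 1.03 (mimic), 0.995 and 0.971 (control miRNA), 0.979 and 0.992 (untreated db/db), and 1.05 and 1.08 (normal). It was used as an alternative. 

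Spots of a probe were averaged (4 probes with outlier calls were dropped), divided by the array's 75th percentile and put on the log2 scale. Of 56605 probes, 33696 were named by accession through RefSeq (GRCm38.p6), 9851 by symbol, 310 by synonym, 83 by the receptors' own names, and 12661 kept the file's name. A probe was kept (33640 were) if 1 group or more had both arrays well above background, and each gene used its brightest. Group means were estimated over the 8 arrays together by limma 3.58.1 (R 4.3.3) with two-sided tests, 4 residual degrees of freedom and 2.19 from the prior. Benjamini-Hochberg adjustment ran over 22369 genes. Exact permutation of single values could reach no lower than p = 0.333 with 2 arrays against 2. With 6 against 2 the lowest p was 0.0714 where the one-sided permutation p is doubled. Precision is limited by the number of arrays. Figures used matplotlib 3.10.9.

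The members and lists were chosen with earlier results of these data known, and the target and marker lists hold textbook genes. Genes named with all arrays were those called in any comparison, the 12 receptors with the smallest p in untreated db/db against normal, the 5 smallest in mimic against control miRNA and in control miRNA against untreated db/db, and the 3 with the widest replicate gaps; the rule for lists allowed called genes and up to 4 more with the smallest p. Nr3c2 and Nr5a2 were given with all arrays outside that rule, chosen after their values were seen, and the remaining receptors by their differences. Nothing in the labels says more of how mice were raised or housed, so p-values measure the spread between these mice. Some genes counted in the lists are not reported here by name.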

Additional observations from a re-analysis of the deposited data

How the results depend on the processing

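Counts of called receptors, with the value under the main settings first. For untreated db/db against normal (1) the count was 4 with normexp background correction, 2 with only probes well above background on all 8 arrays, 7 with array weights and 4 with only the compared arrays; for control miRNA against normal (1) it was 2, 2, 3 and 3 under the same 4 settings and 0 with no filter. For the mimic against normal (5) it was 3 with no filter, 3 with the mean over probes, 0 with array weights and 0 with only the compared arrays. For the mean of the 3 db/db groups (6) it was 11 with normexp, 2 with no filter and 3 with array weights, and for the F test (1) it was 5 with normexp, 0 with no filter, 2 with the stricter filter and 3 with array weights. Apart from the replicate block, given below, the remaining settings, quantile normalization and the authors' ratios among them, stayed within 1.5 times. The cause of these shifts was not tested. The share of all genes called under each processing setting, the replicate block included, is not given here. These counts therefore cannot be set against it. With 1 array left out, the counts ran from 0 to 6 for untreated db/db, 0 to 5 for control miRNA, 1 to 7 for the mimic and 1 to 12 for the mean of the 3 groups, all against normal. They ran from 0 to 10 for the F test, 0 to 4 for mimic against control miRNA, 0 to 7 for mimic against untreated db/db and 0 to 0 for control miRNA against untreated db/db.

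Mice share replicate numbers in name only: deviations of same-numbered arrays correlated between -0.02 and 0.16. With the number as a replicate block, the counts against normal were 1 for untreated db/db, 0 for control miRNA, 4 for the mimic and 5 for the mean of the 3 groups; it was 0 in the F test and 0 in the 3 comparisons among db/db groups. The block ended the calls of Nr1i3 after control miRNA (adjusted p = 0.0535), Ppara after the mimic (0.0716) and Hnf4g in the mean of the 3 groups (0.0598). For single receptors, 649 of 782 values under alternatives kept their direction and side of the threshold, 90 lost a call and 42 gained one. One reversed: Rara in the mean of the 3 groups was -0.072 with the mean over probes, against 0.080, and was called in neither. Replicates were 2 mice per group, and no value here has a second measurement of the same RNA.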
